A study of Homo sapiens with 12 samples.

Results

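Gene expression in shCPT-2 and shCPT-1, a pair of knockdown lines made from the breast cancer cell line MDA-MB-231, was compared with expression in the scramble control line of the same origin. MDA-MB-231 (MDA231 in the labels) is an established human line of the triple-negative, mesenchymal kind. The comparison used 12 of the 12 arrays of the series, chosen by their sample labels: 3 of shCPT-2, 3 of shCPT-1, 3 of the scramble line treated with ETX and 3 of the scramble line without it. The knockdown lines carry lentiviral pGIPZ short hairpin RNAs against CPT1 or CPT2, and the scramble line carries a hairpin with a scrambled sequence. Each group was weighted equally, so the 6 knockdown arrays were set against 6 arrays of the scramble line with drug-treated and untreated cells in equal part. ETX is not spelled out in the labels and was read as etomoxir, an inhibitor of CPT1. Its concentration and duration on the arrayed cells, and the CPT1 isoform targeted, are not given. One scramble line served as the control of both knockdown lines, so a feature of that line cannot be told apart from a shared effect of the hairpins. Whether the 3 arrays of a group stand for separate cultures is not stated, so p-values reflect only the scatter of arrays, and part or all of that may be technical.

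Long-chain fatty acids enter mitochondria through the carnitine shuttle. CPT1, on the outer membrane, joins the acyl group to carnitine, the translocase SLC25A20 carries the product inward, and CPT2, on the inner membrane, returns the acyl group to coenzyme A for beta-oxidation. A short hairpin RNA is expressed from a virus that inserts into the genome of the infected cell, and the infected cells are then selected as a line.

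The deposited values were linear intensities from RMA, a method that corrects, normalizes and summarizes the probes of each array, and were read here on the log2 scale, where 1 unit is a factor of 2. Array medians lay between 74.9 and 77.2, or 6.23 to 6.27 on the log2 scale, and a level near or below them is close to background. Of 54675 probe sets, 28630 exceeded the array median on at least 3 arrays, and 12887 genes with 1 gene symbol were tested. Correlations over all probe sets other than controls were 0.995 to 0.998 within a group, 0.991 to 0.996 between the groups of one side, and 0.989 to 0.994 between knockdown and scramble-line arrays. The difference between 3′ and 5′ control probe sets for actin, a measure of RNA integrity, was 1.70 ± 0.208 on the log2 scale in the knockdown arrays and 1.91 ± 0.247 in the scramble-line arrays (SD, n = 6 each, two-sided exact permutation p = 0.156, smallest possible p = 0.00216). It was 2.248, 2.195 and 1.764 in untreated scramble and 1.678, 1.784 and 1.778 in scramble with ETX. Comparisons with either set of scramble cells alone therefore also differ in this measure, whose part was not tested. Vimentin (VIM), a mesenchymal filament protein that MDA-MB-231 is known for, averaged 14.51 ± 0.025 in shCPT-2, 14.49 ± 0.034 in shCPT-1, 14.54 ± 0.032 in scramble with ETX and 14.48 ± 0.029 in scramble (SD, n = 3 each). The estrogen receptor gene ESR1, which the line is known to lack, averaged 6.98 ± 0.05 in shCPT-2, 6.98 ± 0.114 in shCPT-1, 7.03 ± 0.164 in scramble with ETX and 6.97 ± 0.211 in scramble. Levels as low as that of ESR1, although above the array medians, may therefore also be close to background.

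CPT1A and CPT2 were each lowest in the line that carries the hairpin named for it. CPT1A, the liver-type carnitine palmitoyltransferase of the outer membrane, had log2 intensities of 9.58, 9.60 and 9.48 in shCPT-2, 8.12, 8.10 and 8.34 in shCPT-1, 10.90, 10.80 and 10.97 in scramble with ETX and 9.64, 9.84 and 9.86 in scramble. All 6 knockdown arrays lay below all 6 scramble-line arrays, by a gap of 0.042 between the nearest 2, and scramble cells with ETX were the highest group. The log2 change between the knockdown lines and the scramble line was -1.47 ± 0.055 (SE, adjusted p = 8.28e-10), with -0.78 in shCPT-2 and -2.15 in shCPT-1, and the direct difference of shCPT-2 minus shCPT-1 was 1.37 (adjusted p = 1.02e-07). Since shCPT-2 lay only slightly below untreated scramble, most of its -0.78 rests on the arrays with ETX. CPT1A also lies in a longer lower stretch on chromosome 11, described at the end, whose median was -0.21 in shCPT-2. CPT2 had 6.61, 6.22 and 6.39 in shCPT-2, 7.81, 7.63 and 7.45 in shCPT-1, 7.69, 7.71 and 7.64 in scramble with ETX and 7.46, 7.31 and 7.46 in scramble. The shCPT-2 arrays were below all others, whereas the shCPT-1 arrays overlapped with both scramble-line groups. Its pooled change was -0.53 ± 0.07 (SE, adjusted p = 4.85e-05), with -1.14 in shCPT-2 and 0.08 in shCPT-1. CPT2 in shCPT-2 lay near the array medians, so the size of its fall there is uncertain. The arrays measured whole cultures, so fewer cells with a transcript and less of it per cell cannot be told apart. CPT1C, the brain-type isoform, changed by 0.09 ± 0.05 (SE, adjusted p = 0.179), and SRC, the tyrosine kinase proto-oncogene, by 0.17 ± 0.071 (SE, adjusted p = 0.071), neither past the threshold. CPT1B, the muscle isoform, was not tested because its probe sets carry several gene symbols.

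Many genes separated the knockdown lines from the scramble line, mostly by small amounts. At an adjusted p under 0.05 (limma with Benjamini-Hochberg adjustment over all tested genes), 3395 genes were higher in the knockdown lines, or 26.3% of those tested, and 2610 were lower, or 20.3%. The median absolute change of the called genes was 0.224 for those higher and 0.257 for those lower. On a stricter reading, in which a called gene also had all 6 knockdown arrays on one side of all 6 scramble-line arrays, 1073 genes were higher (8.33%) and 961 were lower (7.46%). Such genes are called shared. Changes of at least 2-fold were rarer and lay more on the lower side, with 44 shared genes higher and 92 lower. The direct comparison of shCPT-2 with shCPT-1 called 4575 genes (35.5%). Of the genes shared on the higher side 688 were not among them, and 575 of those shared on the lower side. These shares were no larger than over all tested genes, and a missing call does not show that the lines were alike. Of the shared genes changed at least 2-fold, 31 of the 44 higher and 67 of the 92 lower did differ between the lines by this test. When the group was treated as a random block, which lets the arrays of one group deviate together, 424 genes were higher and 513 lower.

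The 15 genes with the largest separated rise give products of several kinds, proteins and noncoding RNAs, and 6 of them belong to a block of neighbouring genes on chromosome 17. MATN2, matrilin-2, an adaptor protein of the extracellular matrix, had 9.14, 8.95 and 9.13 in shCPT-2, 8.86, 8.82 and 8.98 in shCPT-1, 7.12, 7.11 and 6.93 in scramble with ETX and 7.01, 7.17 and 6.96 in scramble. AFAP1-AS1, a long noncoding RNA from the opposite strand of the AFAP1 locus, had 9.40, 9.58 and 9.57 in shCPT-2, 8.80, 8.98 and 9.18 in shCPT-1, 7.16, 7.11 and 7.06 in scramble with ETX and 7.33, 7.42 and 7.12 in scramble. In each of these genes the knockdown arrays formed a group at least 1 unit above every scramble-line array. The changes were 1.93 ± 0.054 (SE, adjusted p = 8.48e-11) for MATN2, or 3.82-fold higher, and 2.05 ± 0.068 (SE, adjusted p = 2.77e-10) for AFAP1-AS1, or 4.15-fold higher. In the scramble line MATN2 lay at about the level of ESR1 and AFAP1-AS1 little above it, so the size of these folds is uncertain. For MATN2 neither the difference between the lines, 0.19 (adjusted p = 0.0768), nor the change with ETX within the scramble line, 0.01 (adjusted p = 0.938), passed the threshold.

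NKX2-1 and its neighbour SFTA3 rose together. NKX2-1 is the homeobox transcription factor of lung, thyroid and ventral forebrain, and SFTA3 is a surfactant-associated gene at the same locus of chromosome 14. NKX2-1 had 9.78, 9.86 and 9.84 in shCPT-2, 9.25, 9.43 and 9.35 in shCPT-1, 8.02, 8.11 and 8.30 in scramble with ETX and 7.90, 8.06 and 7.99 in scramble. SFTA3 had 9.33, 9.23 and 9.23 in shCPT-2, 8.88, 9.02 and 8.99 in shCPT-1, 7.498, 7.43 and 7.45 in scramble with ETX and 7.09, 7.12 and 7.30 in scramble. Both genes were higher in every knockdown array than in any scramble-line array, and shCPT-2 was above shCPT-1 by 0.48 (adjusted p = 0.000278) for NKX2-1 and 0.30 (adjusted p = 0.00223) for SFTA3. The pooled changes were 1.52 ± 0.052 (SE, adjusted p = 3.36e-10) for NKX2-1, or 2.87-fold higher, and 1.80 ± 0.044 (SE, adjusted p = 2.26e-11) for SFTA3, or 3.47-fold higher. A second probe set of NKX2-1 gave 0.315. SFTA3 in untreated scramble lay little above the level of ESR1, so the size of its fold is uncertain. Of 10 tested genes of a list of NKX2-1 and lung or thyroid genes, 2 were higher, namely this pair, and 3 were lower, among them FOXA1 (-0.50), a pioneer factor of foregut and luminal epithelium, and ABCA3 (-0.42), the lipid transporter of lamellar bodies. FOXA1 was near or below the array medians in all groups. The shares of this list, 20% higher and 30% lower, stand against 26.3% and 20.3% over all tested genes.

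The promoter windows of this pair are shown because the genes are neighbours on the same strand and moved together. The windows run from 250 bases before to 50 bases after the annotated start, are credited to RefSeq (GRCh38.p14) and read 5′ to 3′, NKX2-1 at chr14:36520183-36520482 on the minus strand and SFTA3 at chr14:36519507-36519806 on the minus strand. Capitals mark the motif ACGTG, searched on both strands, which is present in the NKX2-1 window and not in the SFTA3 window.
NKX2-1: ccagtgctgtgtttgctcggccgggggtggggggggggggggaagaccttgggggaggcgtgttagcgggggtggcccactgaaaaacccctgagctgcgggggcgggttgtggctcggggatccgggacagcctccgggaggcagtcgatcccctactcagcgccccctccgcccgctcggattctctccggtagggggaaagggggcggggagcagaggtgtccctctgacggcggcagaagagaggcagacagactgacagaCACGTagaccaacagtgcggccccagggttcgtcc
SFTA3: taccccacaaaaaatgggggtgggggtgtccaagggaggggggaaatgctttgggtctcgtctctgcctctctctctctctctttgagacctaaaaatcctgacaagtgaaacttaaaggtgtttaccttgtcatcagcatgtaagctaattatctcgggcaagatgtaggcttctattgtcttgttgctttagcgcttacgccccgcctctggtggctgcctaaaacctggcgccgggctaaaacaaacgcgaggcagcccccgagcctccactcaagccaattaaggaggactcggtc
ACGTG was present in 4 of the 10 rising genes with a window (40%), in 1 of the 10 falling ones (10%) and in 26.5% of the windows of all tested genes.

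CDA, cytidine deaminase of pyrimidine salvage, rose by a similar amount in both lines. It had 9.15, 9.16 and 9.16 in shCPT-2, 9.09, 9.12 and 9.16 in shCPT-1, 8.07, 8.06 and 8.14 in scramble with ETX and 8.18, 8.07 and 8.10 in scramble. The knockdown arrays lay close together, about 1 unit above the scramble line. Its change was 1.03 ± 0.031 (SE, adjusted p = 1.42e-10), or 2.05-fold higher, with a difference between the lines of 0.03 (adjusted p = 0.609) and a change with ETX of -0.03 (adjusted p = 0.619). AHNAK2, a very large scaffold-type protein, rose by 1.28 ± 0.03 and likewise showed no called difference between the lines (-0.01), although a second probe set gave a smaller 0.413. FBXL16, an F-box protein, rose by 1.25 ± 0.046, and the noncoding LINC02582 by 1.35 ± 0.102.

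**Figure D1:**
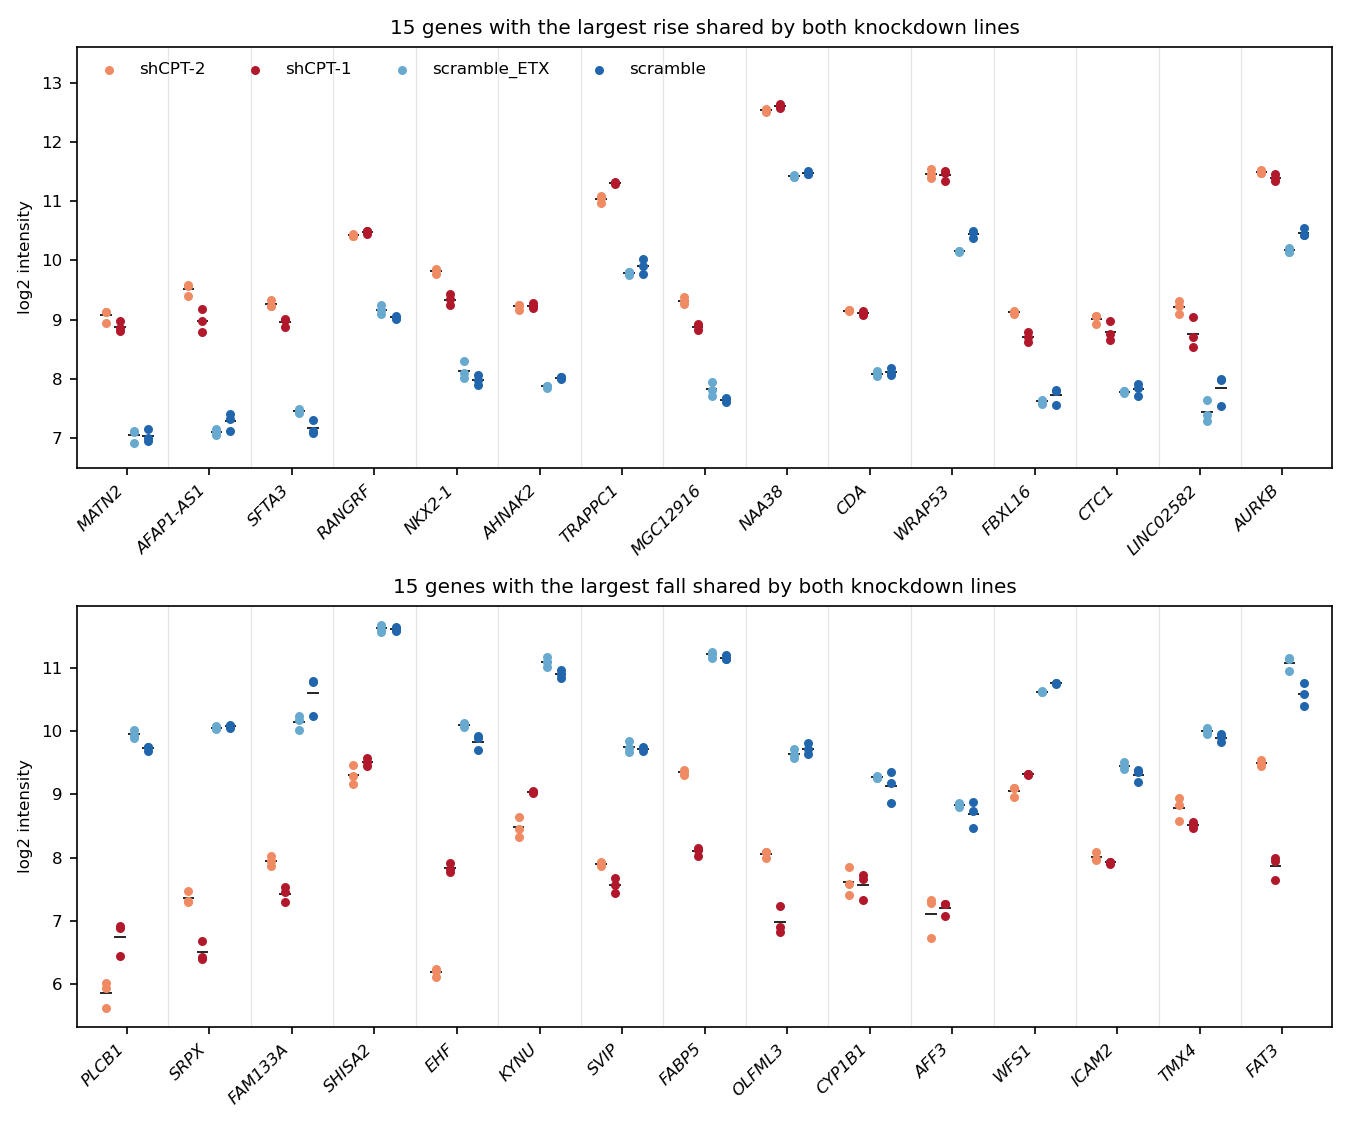
Log2 intensity of the 15 genes with the largest separated rise (upper) and the 15 with the largest separated fall (lower) on each array. Points are single arrays, 3 per group, and short lines are group means. For each gene the 6 knockdown arrays lie on one side of the 6 scramble-line arrays, and EHF, FABP5 and FAT3 also show a wide gap between shCPT-2 and shCPT-1.

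The falls were larger than the rises. PLCB1, a phospholipase C that releases inositol trisphosphate and diacylglycerol downstream of G protein-coupled receptors, had 6.01, 5.63 and 5.93 in shCPT-2, 6.45, 6.91 and 6.88 in shCPT-1, 10.02, 9.94 and 9.90 in scramble with ETX and 9.70, 9.75 and 9.75 in scramble. SRPX, a sushi-repeat protein encoded on the X chromosome, had 7.48, 7.29 and 7.31 in shCPT-2, 6.39, 6.69 and 6.43 in shCPT-1, 10.04, 10.05 and 10.08 in scramble with ETX and 10.06, 10.09 and 10.10 in scramble. PLCB1 in shCPT-2 was below the median of every array, and SRPX in shCPT-1 was within 0.5 units of it, so these folds are less certain than those of brighter genes. The changes were -3.54 ± 0.083 (SE, adjusted p = 1.76e-11) for PLCB1, or 11.6-fold lower, and -3.14 ± 0.052 (SE, adjusted p = 6.23e-13) for SRPX, or 8.81-fold lower. Of 12 tested phospholipase C isoforms 3 were lower (25%), PLCB1 among them, and 3 were higher (25%), among them PLCG2 (0.58). These shares are near the 20.3% lower and 26.3% higher over all tested genes.

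EHF, an ETS transcription factor of epithelia, fell in both lines and further in shCPT-2. It had 6.20, 6.11 and 6.23 in shCPT-2, 7.82, 7.92 and 7.77 in shCPT-1, 10.14, 10.12 and 10.06 in scramble with ETX and 9.89, 9.92 and 9.70 in scramble. The shCPT-2 arrays lay at or below the array medians, so the size of the fall there and of the line difference is uncertain. Its change was -2.96 ± 0.045 (SE, adjusted p = 4.87e-13), or 7.80-fold lower, with -3.79 in shCPT-2 and -2.14 in shCPT-1. Of 20 tested ETS factors 5 were lower (25%), among them SPDEF (-1.08) and ETS1 (-0.30), and 4 were higher (20%). These shares are near those over all tested genes, 20.3% lower and 26.3% higher. With the group as a random block 2 ETS factors were lower and 0 higher, against 513 and 424 of all 12887 genes. The 4 other probe sets of SPDEF gave -0.75, -0.424, -0.162 and -0.111, and the other ones of ETS1 gave -0.631 and -0.086. SHISA2, whose family in Xenopus and mouse retains Wnt and FGF receptors in the endoplasmic reticulum, had 9.47, 9.17 and 9.29 in shCPT-2, 9.45, 9.57 and 9.51 in shCPT-1, 11.62, 11.69 and 11.58 in scramble with ETX and 11.65, 11.61 and 11.59 in scramble. Its change of -2.21 ± 0.048 (SE, adjusted p = 9.58e-12) was 4.63-fold lower, and the line difference was -0.20.

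FABP5, the epidermal fatty acid-binding protein that carries fatty acids to nuclear receptors, was a bright gene of the scramble line. It had 9.39, 9.36 and 9.30 in shCPT-2, 8.03, 8.12 and 8.15 in shCPT-1, 11.16, 11.23 and 11.26 in scramble with ETX and 11.14, 11.14 and 11.21 in scramble. Knockdown arrays were far below the scramble line, with shCPT-1 below shCPT-2 and no overlap among these 3 sets. The change was -2.47 ± 0.034 (SE, adjusted p = 3.14e-13), or 5.52-fold lower, and ETX moved it by 0.05 (adjusted p = 0.394). KYNU, kynureninase of tryptophan breakdown, had 8.65, 8.32 and 8.46 in shCPT-2, 9.03, 9.05 and 9.02 in shCPT-1, 11.09, 11.02 and 11.17 in scramble with ETX and 10.84, 10.91 and 10.97 in scramble. Its change was -2.25 ± 0.052 (SE, adjusted p = 1.72e-11), or 4.74-fold lower. CYP1B1, a monooxygenase induced through the aryl hydrocarbon receptor, changed by -1.61 ± 0.096. Of 13 tested kynurenine and aryl hydrocarbon receptor genes 4 were lower (30.8%) and 3 higher (23.1%), against 20.3% and 26.3% over all tested genes.

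WFS1, wolframin of the endoplasmic reticulum membrane, was lower in both lines, with -1.64 in shCPT-2 and -1.37 in shCPT-1. It had 8.96, 9.09 and 9.10 in shCPT-2, 9.32, 9.30 and 9.33 in shCPT-1, 10.62, 10.63 and 10.61 in scramble with ETX and 10.76, 10.77 and 10.74 in scramble. The change was -1.51 ± 0.031 (SE, adjusted p = 7.5e-12), or 2.84-fold lower. ICAM2, an adhesion ligand of leukocyte integrins, changed by -1.42 ± 0.04 with no called line difference (0.08). SVIP, an inhibitor of endoplasmic reticulum-associated degradation, changed by -2.01 ± 0.044, OLFML3, a secreted olfactomedin-domain protein, by -2.16 ± 0.063, and TMX4, a membrane thioredoxin, by -1.30 ± 0.055. FAT3, an atypical cadherin, changed by -2.16 ± 0.072, with -1.35 in shCPT-2 and -2.98 in shCPT-1, and was itself higher with ETX by 0.50 (adjusted p = 0.00244).

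Changes were not scattered evenly over the genome. When the 12859 tested genes with a known place were put in RefSeq order and a running median was taken over 11 genes, the change between the knockdown lines and the scramble line reached at least 0.35 in 168 windows and -0.35 or less in 188 of 12623, with extremes of 0.96 around CNTROB on chromosome 17 and -0.88 around APOOL on the X chromosome. The same count was 4 and 8 windows for shCPT-2 minus shCPT-1, and 65 and 0 for ETX minus scramble within the scramble line. Runs of at least 10 such windows formed 8 blocks of neighbouring genes that held 290 of the tested genes, or 2.25%. They held 88 of the 1073 genes shared on the higher side (8.2%) and 111 of the 961 on the lower side (11.6%), and among those changed 2-fold or more 10 of 44 (22.7%) and 15 of 92 (16.3%). The blocks were defined on this same contrast, so the values inside them are a description without a test. DNA copy number was not measured.

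**Figure D2:**
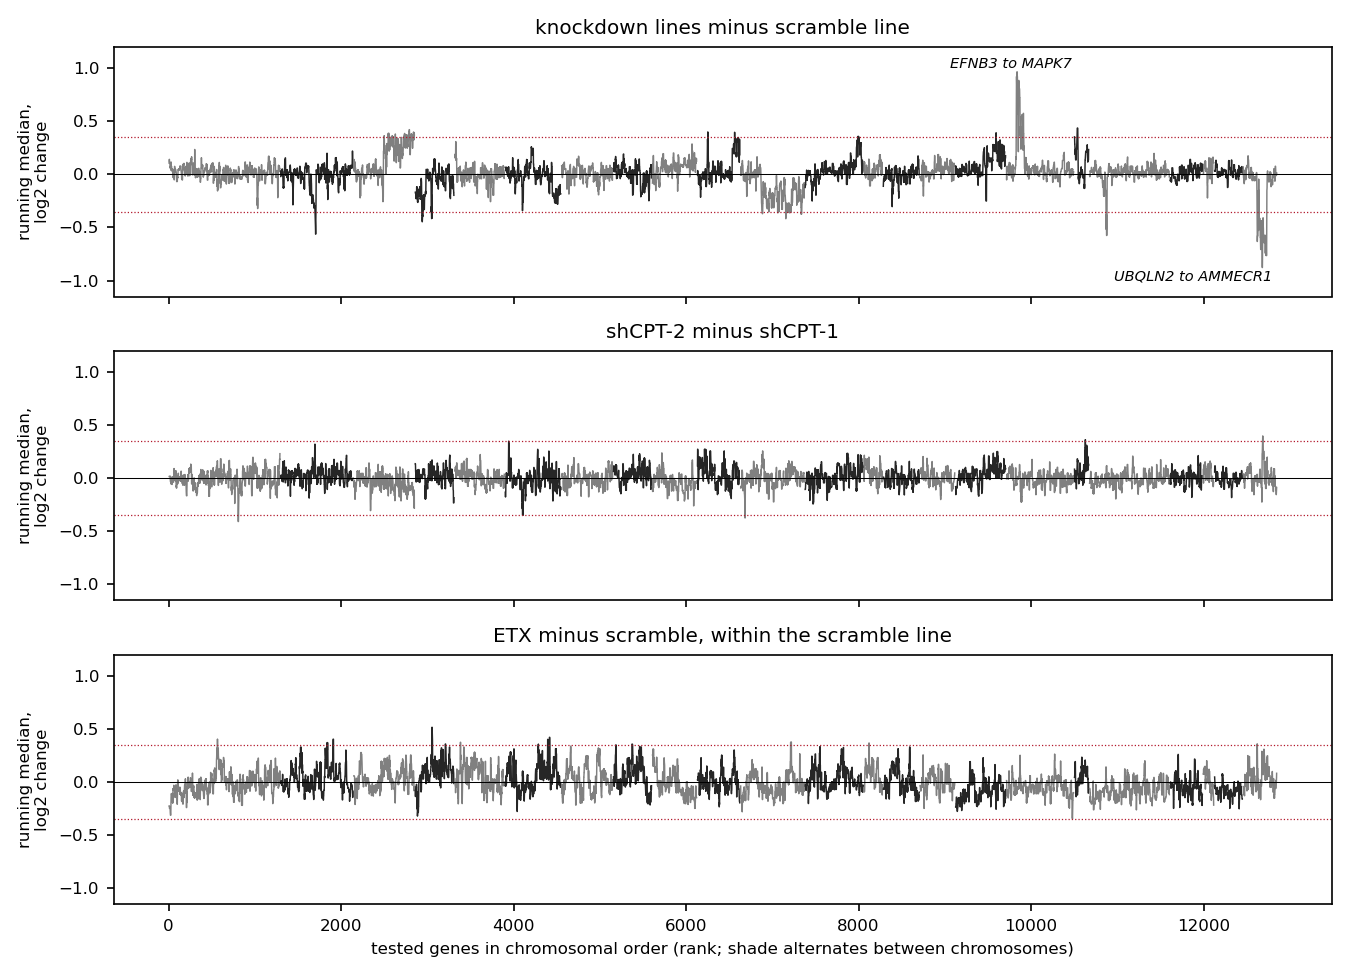
Running median of the log2 change over 11 tested genes, against gene rank in chromosomal order, for the knockdown lines minus the scramble line (upper), shCPT-2 minus shCPT-1 (middle) and ETX minus scramble within the scramble line (lower). Dotted lines mark changes of 0.35 in either direction. The upper trace peaks at 0.96 on chromosome 17 and dips to -0.88 on the X chromosome, and the other traces stay between -0.41 and 0.52.

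The block on chromosome 17 ran from EFNB3 to MAPK7 and was higher in both lines. Of its 88 tested genes 66 were higher, 2 were lower and 20 were not called, and 59 were shared on the higher side. The median change was 0.57, with 0.55 in shCPT-2 and 0.61 in shCPT-1, and -0.04 for ETX within the scramble line. With each gene centred over the 12 arrays, the block's median was 0.24, 0.26 and 0.21 in shCPT-2, 0.27, 0.32 and 0.33 in shCPT-1, -0.29, -0.27 and -0.24 in scramble with ETX and -0.26, -0.26 and -0.30 in scramble. No knockdown array came near the scramble line. Just outside, WRAP53, the telomerase Cajal body protein, was still higher (1.15), as was SAT2 (0.41), and FXR2, a few genes further out, was higher by no more than 0.14.

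RANGRF, a release factor of the Ran GTPase, had 10.41, 10.42 and 10.45 in shCPT-2, 10.44, 10.51 and 10.50 in shCPT-1, 9.09, 9.16 and 9.25 in scramble with ETX and 9.07, 9.03 and 9.02 in scramble. TRAPPC1, a subunit of the TRAPP complex that tethers vesicles between endoplasmic reticulum and Golgi, had 11.08, 11.05 and 10.97 in shCPT-2, 11.30, 11.32 and 11.29 in shCPT-1, 9.76, 9.81 and 9.81 in scramble with ETX and 10.02, 9.91 and 9.77 in scramble. AURKB, the kinase of the chromosomal passenger complex in mitosis, had 11.47, 11.48 and 11.53 in shCPT-2, 11.38, 11.33 and 11.45 in shCPT-1, 10.14, 10.15 and 10.22 in scramble with ETX and 10.43, 10.42 and 10.56 in scramble. All 3 were bright in every group and separated without overlap. Their changes were 1.35 ± 0.033 (SE, adjusted p = 2.26e-11) for RANGRF, 1.32 ± 0.042 (SE, adjusted p = 2.07e-10) for TRAPPC1 and 1.12 ± 0.036 (SE, adjusted p = 2.07e-10) for AURKB, or 2.55-fold higher, 2.50-fold higher and 2.18-fold higher. Within the scramble line AURKB fell with ETX, with a change of -0.30 (adjusted p = 0.000718). NAA38, an auxiliary subunit of the NatC N-terminal acetyltransferase, had 12.51, 12.56 and 12.53 in shCPT-2, 12.64, 12.60 and 12.56 in shCPT-1, 11.42, 11.42 and 11.44 in scramble with ETX and 11.51, 11.46 and 11.46 in scramble. Its change was 1.12 ± 0.028 (SE, adjusted p = 2.6e-11), or 2.17-fold higher.

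Other genes of the block have varied roles. MYH10, the heavy chain of nonmuscle myosin IIB, averaged 12.38 ± 0.02 in shCPT-2, 12.37 ± 0.017 in shCPT-1, 11.29 ± 0.026 in scramble with ETX and 11.47 ± 0.075 in scramble (SD, n = 3 each), and MAP2K4, a kinase upstream of JNK, changed by 0.94 ± 0.03. SREBF1, the master regulator of fatty acid synthesis genes, changed by 1.07 ± 0.048 with 0.70 in shCPT-2 and 1.44 in shCPT-1, although a second probe set gave 0.283. CNTROB, a centriole protein, changed by 1.18 ± 0.054. CTC1, of the CST complex at telomeres, changed by 1.10 ± 0.056, although its other probe sets gave 0.933 and -0.066. COX10 (0.81) and SCO1 (0.89), both assembly factors of cytochrome oxidase, FLCN (0.89), folliculin of lysosomal nutrient sensing, and PFAS (0.92), an enzyme of purine synthesis, were higher too. NTN1, GAS7 and DNAH9 were among the 20 not called.

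The promoter windows of 3 of these genes are printed because the genes are neighbours that moved together and each window holds the motif CCGGAAG, of the kind bound by ETS factors, marked in capitals on whichever strand it lies (CTTCCGG on the other strand). RANGRF is at chr17:8288420-8288719 on the plus strand, TRAPPC1 at chr17:7931950-7932249 on the minus strand and AURKB at chr17:8210176-8210475 on the minus strand (RefSeq, GRCh38.p14, each written 5′ to 3′ along its own gene).
RANGRF: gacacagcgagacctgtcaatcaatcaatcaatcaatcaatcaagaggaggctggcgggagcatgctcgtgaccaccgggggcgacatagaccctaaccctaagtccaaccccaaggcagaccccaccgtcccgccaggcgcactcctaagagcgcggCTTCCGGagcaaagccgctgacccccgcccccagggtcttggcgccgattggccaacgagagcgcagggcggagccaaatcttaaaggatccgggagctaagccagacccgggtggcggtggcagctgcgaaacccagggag
TRAPPC1: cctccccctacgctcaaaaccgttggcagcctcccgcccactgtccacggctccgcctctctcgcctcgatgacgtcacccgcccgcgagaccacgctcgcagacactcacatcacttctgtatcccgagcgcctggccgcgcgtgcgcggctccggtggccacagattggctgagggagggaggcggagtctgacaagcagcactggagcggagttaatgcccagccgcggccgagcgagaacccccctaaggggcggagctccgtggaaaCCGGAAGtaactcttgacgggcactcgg
AURKB: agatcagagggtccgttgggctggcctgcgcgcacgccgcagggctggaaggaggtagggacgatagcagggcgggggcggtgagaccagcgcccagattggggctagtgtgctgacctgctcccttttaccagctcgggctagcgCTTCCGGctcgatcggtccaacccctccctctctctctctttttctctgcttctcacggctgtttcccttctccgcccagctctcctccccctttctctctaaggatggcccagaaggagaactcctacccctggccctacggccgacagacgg
These were the 3 of 10 rising genes with a window that held it (30%), against 0 of 10 falling ones. It was present in 21.3% of the windows of genes shared on the higher side, 16% of those shared on the lower side, 18.6% of all tested genes with a window and 10.7% of the 27305 windows in the table. TATAAA was in 0 of the 10 rising and 2 of the 10 falling genes, against 5.83% of tested genes, TGACTCA in 0 of either, against 3.12%, and TGATGNAA in 1 and 0, against 1.84%.

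The block on the X chromosome ran from UBQLN2 to AMMECR1 and was lower in both lines. Of 113 tested genes 95 were lower, 1 was higher and 17 were not called, and 83 were shared on the lower side. The median change was -0.58, with -0.58 in shCPT-2, -0.61 in shCPT-1 and 0.08 for ETX within the scramble line. The centred median was -0.24, -0.30 and -0.25 in shCPT-2, -0.33, -0.29 and -0.29 in shCPT-1, 0.30, 0.33 and 0.35 in scramble with ETX and 0.19, 0.21 and 0.26 in scramble. The drug-treated arrays were the highest of all, and the knockdown arrays did not overlap with either scramble-line group. At the near end RRAGB (-0.18), of the Rag GTPases, was not called, and at the far end CHRDL1 was lower (-0.50) and ALG13 was not called (0.01).

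COL4A5, a chain of basement membrane collagen, had 5.33, 4.74 and 4.52 in shCPT-2, 4.99, 5.05 and 5.16 in shCPT-1, 8.11, 8.15 and 8.0 in scramble with ETX and 8.15, 8.22 and 7.71 in scramble. It was under every array median in both knockdown lines, and its change of -3.09 ± 0.124 (SE, adjusted p = 1.41e-09), or 8.53-fold lower, is uncertain in size for that reason. GLA, the lysosomal alpha-galactosidase, had 9.62, 9.59 and 9.66 in shCPT-2, 9.29, 9.30 and 9.32 in shCPT-1, 10.49, 10.44 and 10.55 in scramble with ETX and 10.30, 10.33 and 10.37 in scramble. MORC4, a zinc-finger ATPase, had 9.74, 9.68 and 9.66 in shCPT-2, 9.82, 9.90 and 9.88 in shCPT-1, 10.80, 10.78 and 10.87 in scramble with ETX and 11.23, 11.16 and 11.22 in scramble. Both were well above the array medians in all groups, and their changes were -0.95 ± 0.031 (SE, adjusted p = 2.25e-10) and -1.23 ± 0.032 (SE, adjusted p = 4.25e-11). BEX2 (-1.88), NAP1L3 (-2.84), FAM133A (-2.69), HMGN5 (-1.17), a nucleosome-binding protein, and ACSL4 (-0.99), which activates polyunsaturated fatty acids, were lower as well. BEX2 in both knockdown lines and NAP1L3 in shCPT-1 lay below the array medians. OGT (-0.57), the transferase of O-linked N-acetylglucosamine, ATRX (-0.22), a chromatin remodeler, and MSN (-0.30), moesin of the cell cortex, fell less. The 1 higher gene was the pseudogene PABPN1P1 (0.18).

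**Figure D3:**
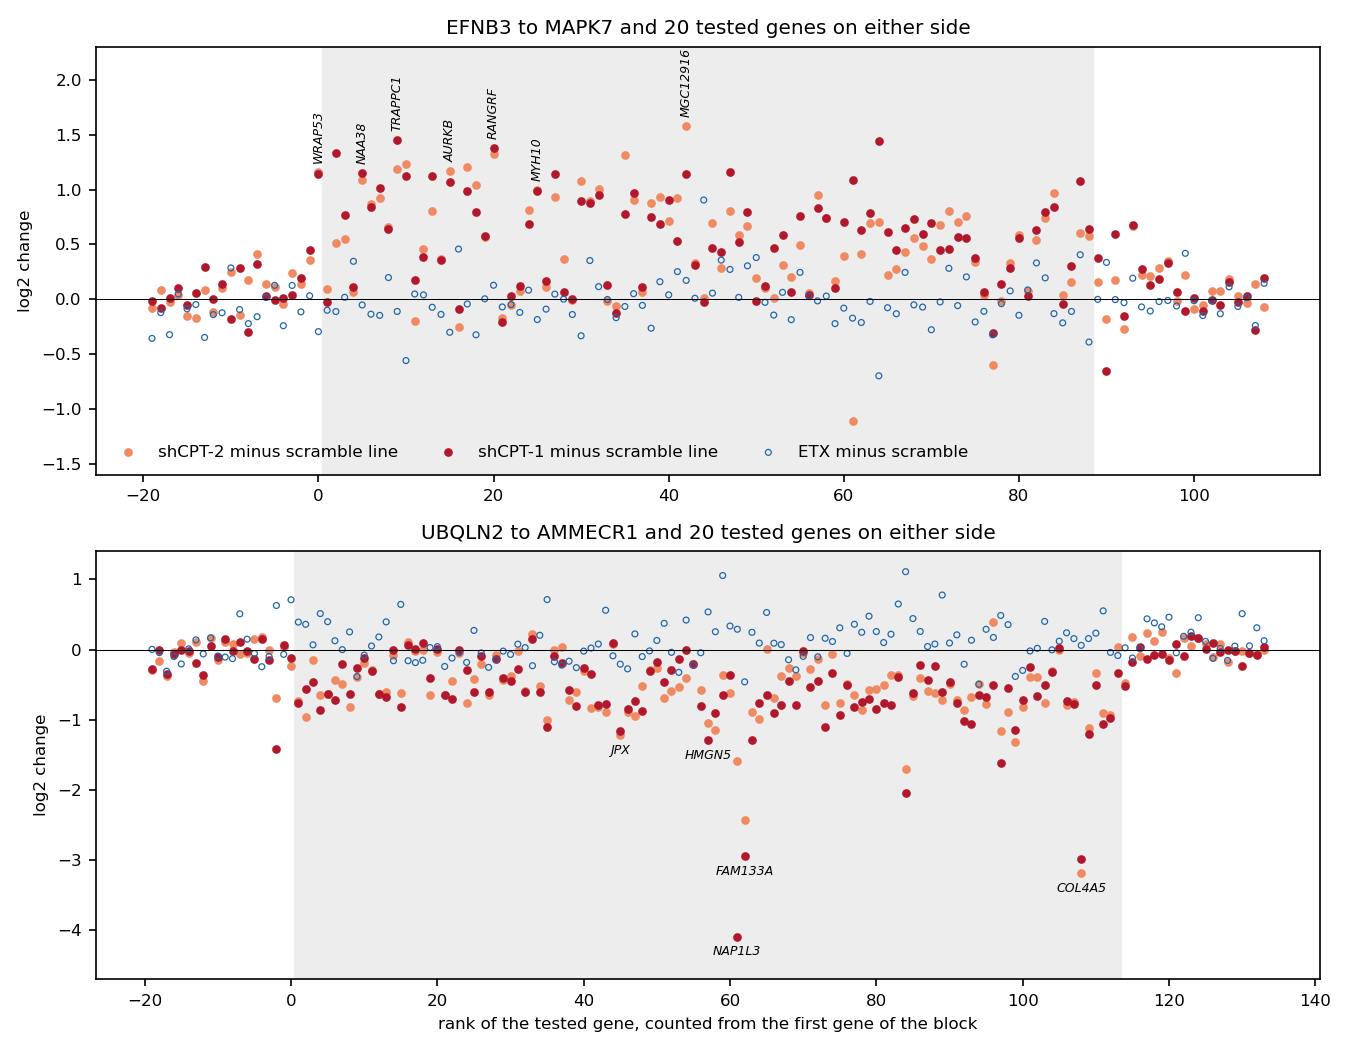
Log2 change of each tested gene in and around the blocks on chromosome 17 (upper) and the X chromosome (lower), in gene order with ranks counted from the first gene of the block. Filled points are shCPT-2 and shCPT-1 minus the scramble line, open points ETX minus scramble, and the shading covers the block. The filled points move away from 0 inside the shading, with medians of 0.57 and -0.58, and return towards 0 beyond it.

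The other 6 blocks were smaller. From TXNDC9 to MAP4K4 on chromosome 2, 10 of 11 genes were lower (median -0.49), among them AFF3 (-1.61 ± 0.099), a nuclear factor of the super elongation complex family, and NPAS2 (-0.77), a clock transcription factor. From RAB28 to LCORL on chromosome 4, 14 of 17 were lower (median -0.41), with LDB2 (-1.57) and the homeobox gene NKX3-2 (-1.004) the furthest, although LDB2 was below the array medians in both knockdown lines. From ZNF414 to ZNF562 on chromosome 19, 8 of 11 were lower (median -0.52), including the zinc-finger genes ZNF266 (-0.97) and ZNF559 (-0.90). On chromosome 3, 13 of 17 genes from ITGB5 to ABTB1 (median 0.35), 12 of 14 from CAMK2N2 to LIPH (median 0.39) and 18 of 19 from PCYT1A to RUBCN (median 0.39) were higher. These held MCM2 (0.38) of the replicative helicase, EHHADH (0.53, from a scramble-line level below the array medians) of peroxisomal beta-oxidation, EIF4G1 (0.40) of translation initiation and MELTF (0.93), melanotransferrin. Outside all 8 blocks 985 of 12597 genes remained shared on the higher side and 850 on the lower.

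**Figure D4:**
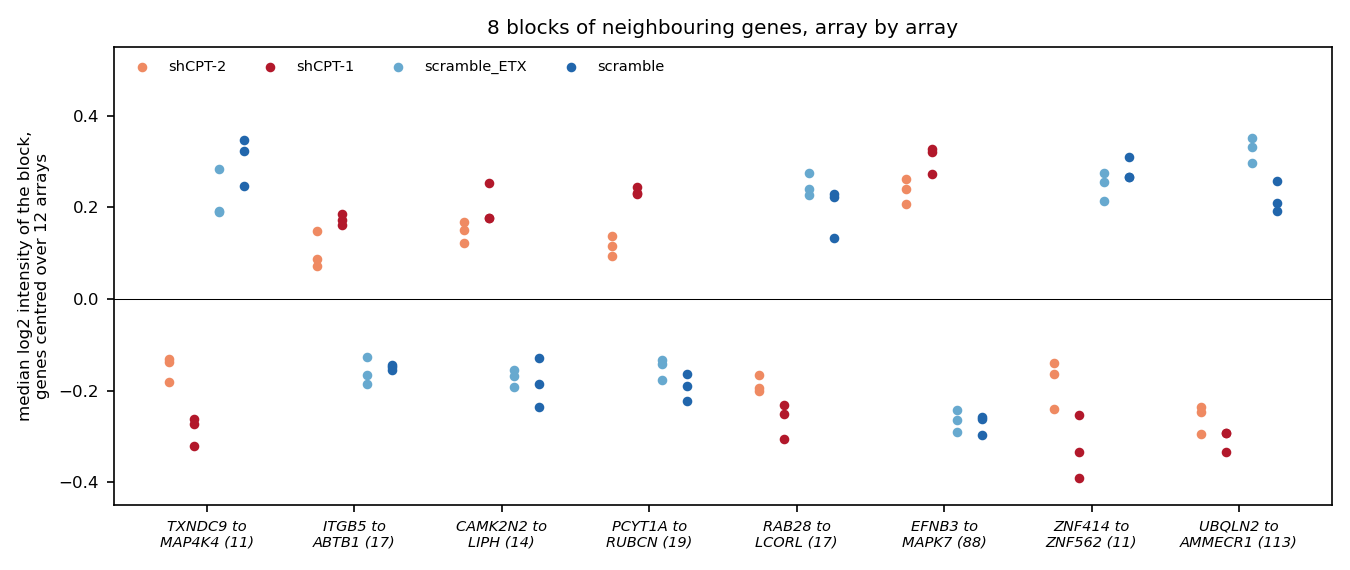
Median log2 intensity of each of 8 blocks of neighbouring genes on each array, after centring every gene over the 12 arrays. Points are arrays, 3 per group, and the number of tested genes stands in brackets. In the block from EFNB3 to MAPK7 knockdown arrays lie at 0.21 to 0.33 and scramble-line arrays at -0.30 to -0.24, and in the block from UBQLN2 to AMMECR1 they lie at -0.33 to -0.24 against 0.19 to 0.35.

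Lists of genes by role are read against the shares over all tested genes, of which 26.3% were higher and 20.3% lower, and 8.33% and 7.46% shared. With the group as a random block 424 of all 12887 tested genes were higher and 513 lower, and list counts under that fit are read against those. The lists were not separated from the longer stretches of shifted neighbours described at the end, so a member can also lie in such a stretch. Only some of the named members that do are marked as such. Genes of fatty acid import and oxidation were lower more often than higher, and their counts depended on which scramble cells were used. Of 8 tested genes of the carnitine shuttle 6 were lower and 0 higher, with a median of -0.37 against 0.02 over all tested genes. SLC22A4, an organic cation and carnitine transporter, had 8.64, 8.46 and 8.61 in shCPT-2, 8.63, 8.63 and 8.66 in shCPT-1, 9.61, 9.57 and 9.73 in scramble with ETX and 9.17, 9.35 and 9.14 in scramble. It was lower in every knockdown array than in any scramble-line array, with a change of -0.82 ± 0.048 (SE, adjusted p = 3.71e-08), whereas the translocase SLC25A20 (-0.43) overlapped, was higher with ETX by 1.22 and stood at 0.18 against untreated scramble alone. Set against untreated scramble cells alone, where 26% of all genes were higher and 20% lower, 4 shuttle genes were lower and 1 higher, and against ETX-treated cells alone, where the shares were 25.7% and 21%, 6 were lower and 1 higher. With the group as a random block 2 were lower.

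Of 19 tested beta-oxidation enzymes 7 were lower and 3 higher (median -0.06), with HADH (-0.31, and -0.2 and -0.013 on its other probe sets) and ACSL5 (-0.46) shared on the lower side and ACADSB (0.78), ECHS1 (0.37) and ACAD9 (0.36) shared on the higher. Against untreated scramble alone this turned to 3 lower and 7 higher, and with the group as a random block 2 were lower and 2 higher. Of 12 PPAR target genes 8 were lower and 0 higher (median -0.55), which became 5 and 3 against untreated scramble alone (median -0.18) and 7 and 0 against ETX-treated cells alone (median -1.32). With the group as a random block 3 were lower and 0 higher. ANGPTL4, a secreted lipase inhibitor, changed by -1.45 ± 0.052 in the knockdown lines and by 2.21 with ETX. Most of its pooled change rests on the arrays with ETX. Its knockdown arrays averaged about the level of ESR1, so the size of its fall is uncertain. PDK4, which shuts off pyruvate dehydrogenase, rose with ETX by 3.83. PDK4 lay below the array medians in both knockdown lines and in untreated scramble, so no change against the knockdown lines is given. Of 14 fatty acid synthesis genes 6 were higher and 3 lower (median 0.12), led by SREBF1 of the chromosome 17 block and by FASN (0.34), and 4 and 4 against untreated scramble alone. Of 17 cholesterol genes 7 were lower and 1 higher (median -0.08), with SC5D (-0.55) shared. With the group as a random block 1 fatty acid synthesis gene was higher and 1 cholesterol gene lower.

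Central energy genes moved in both directions by little. Glycolysis genes were higher in 5 and lower in 3 of 21 (median 0.04), respiratory chain subunits in 14 and 11 of 43 (median 0.04) and TCA cycle genes in 7 and 6 of 19 (median 0.06). COX4I1 (0.31) was shared on the higher side and NDUFV1 (-0.36, although 0.058 on a second probe set), COX7B (-0.44) and DLAT (-0.39) on the lower. Over all tested genes 26.3% were higher and 20.3% lower.

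NF-kB targets and feedback inhibitors were lower more often than higher. Of 26 tested members 18 were lower and 2 higher (median -0.32), or 69.2% and 7.69%, against 20.3% lower and 26.3% higher over all tested genes. Of the lower ones 7 were shared, or 7 of 26, against 7.46% of all genes. RELA, the p65 subunit itself, had 9.64, 9.72 and 9.56 in shCPT-2, 9.62, 9.64 and 9.59 in shCPT-1, 9.99, 9.98 and 10.09 in scramble with ETX and 10.07, 10.01 and 10.08 in scramble. ICAM1, an adhesion molecule induced by NF-kB, had 7.41, 7.27 and 7.41 in shCPT-2, 7.40, 7.24 and 7.51 in shCPT-1, 8.16, 8.13 and 8.18 in scramble with ETX and 8.07, 8.07 and 7.99 in scramble. CXCL3, a neutrophil chemokine, had 8.36, 8.27 and 8.27 in shCPT-2, 7.51, 7.52 and 7.51 in shCPT-1, 9.502, 9.51 and 9.56 in scramble with ETX and 8.79, 8.89 and 9.04 in scramble. The knockdown lines overlapped each other for RELA and ICAM1 but not the scramble line, and for CXCL3 no pair of groups overlapped. The changes were -0.41 ± 0.036 (SE, adjusted p = 1.43e-06) for RELA, -0.73 ± 0.047 (SE, adjusted p = 8.61e-08) for ICAM1 and -1.31 ± 0.041 (SE, adjusted p = 1.91e-10) for CXCL3. NFKBIA (-0.65), the inhibitor that NF-kB induces, SOD2 (-0.53) and CXCL2 (-1.10) were shared on the lower side, and NFKBIZ (0.32) was shared on the higher. RELA lies in a longer lower stretch on chromosome 11, in which 241 of 362 genes were lower. NFKBIZ lies in a longer higher stretch on chromosome 3, in which 240 of 322 were higher. The counts were 16 lower and 1 higher against untreated scramble alone, 16 and 2 against ETX-treated cells alone, and 8 and 0 with the group as a random block.

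Interferon-stimulated genes did not move one way. Of 38 tested, 14 were lower and 11 higher (median 0.01), shares of 36.8% and 28.9%, against 20.3% and 26.3% over all tested genes. Of those shared 10 lay on the lower side and 3 on the higher, against 7.46% and 8.33% of all genes. With the group as a random block 7 were lower and 2 higher. TRIM22, an antiviral RING-finger protein, had 5.76, 5.71 and 5.89 in shCPT-2, 6.26, 6.43 and 6.33 in shCPT-1, 8.27, 8.19 and 8.05 in scramble with ETX and 7.28, 7.39 and 7.46 in scramble, and it was under every array median in shCPT-2. It changed by -1.71 ± 0.051 (SE, adjusted p = 1.4e-10), or 3.27-fold lower. IRF1 (-1.02 ± 0.034), a transcription factor of the interferon response, BST2 (-1.28), a tether of budding virus, GBP1 (-0.88) and GBP2 (-0.97), both interferon-induced GTPases, were lower, and MX1 (0.40) and OAS1 (0.48), antiviral effectors, were higher, OAS1 near or below the array medians in every group. MHC class I presentation genes were lower in 9 and higher in 0 of 14 (median -0.20, TAP1 -0.34 and PSMB9 -0.50), and with the group as a random block 0 were called. MHC class II genes were lower in 8 and higher in 0 of 12 (median -0.24), of which 1 was shared, and with the group as a random block 1 was lower. Among them HLA-DRA (-1.90 in shCPT-2 and -0.08 in shCPT-1) and CD74 (-1.29 in shCPT-2 and -0.07 in shCPT-1) were called lower in shCPT-2 and not in shCPT-1, with line differences of -1.83 (adjusted p = 5.09e-07) and -1.22 (adjusted p = 1.2e-07). CTSS (-0.93), the invariant-chain protease cathepsin S, fell in both lines.

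The counts of stress-response lists depended on the choice of scramble cells. Of 35 ATF4 genes 14 were lower and 7 higher (median -0.09). They were 4 lower and 23 higher against untreated scramble alone (median 0.24), and 27 lower and 1 higher against ETX-treated cells alone (median -0.51). Of 19 chaperones and other genes of the unfolded protein response 12 were lower and 2 higher (median -0.15), which became 7 and 7 against untreated scramble and 16 and 1 against ETX-treated cells. HYOU1, a chaperone of the endoplasmic reticulum, averaged 11.08 ± 0.064 in shCPT-2, 11.44 ± 0.069 in shCPT-1, 12.01 ± 0.051 in scramble with ETX and 11.97 ± 0.109 in scramble (SD, n = 3 each) and changed by -0.73 ± 0.044 with an ETX change of 0.05. It is the first gene of a longer lower stretch on chromosome 11, in which 36 of 55 genes were lower. DNAJB9 (-0.80) and PDIA3 (-0.55) were shared on the lower side. Of 19 NRF2 genes 13 were lower and 1 higher (median -0.27), and were lower more often than higher against either set of scramble cells (8 and 1 against untreated cells, 14 and 1 against ETX-treated cells). AKR1C3, an aldo-keto reductase, changed by -1.58 ± 0.046 (SE, adjusted p = 1.07e-10), or 2.999-fold lower, with AKR1C2 (-1.05), AKR1C1 (-0.95) and NQO1 (-0.36) also shared. AKR1C2 in shCPT-2 lay near the array medians. The AKR1C genes are near-identical copies, so their probe sets may share signal. With the group as a random block, 2 ATF4, 2 unfolded protein response and 3 NRF2 genes were lower and 0 higher.

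Mitosis genes were higher in number but by small amounts. Of 34 tested, 25 were higher and 1 lower (median 0.17), or 73.5% and 2.94%, against 26.3% and 20.3% over all tested genes. Without the genes in the 8 blocks, which include AURKB and the kinesin KIF4A, 24 were higher and 0 lower of 32. NDC80, of the outer kinetochore, averaged 11.85 ± 0.036 in shCPT-2, 11.83 ± 0.023 in shCPT-1, 11.24 ± 0.126 in scramble with ETX and 11.66 ± 0.042 in scramble (SD, n = 3 each) and changed by 0.39 ± 0.041 (SE, adjusted p = 7.01e-06). PLK1 (0.45), polo-like kinase, and KIF23 (0.38), a kinesin of the central spindle, were also shared, and ECT2 (0.63) overlapped. The count was 12 higher and 4 lower against untreated scramble alone, 30 and 1 against ETX-treated cells alone, and 1 and 1 with the group as a random block. DNA replication genes were higher in 17 and lower in 6 of 38 (median 0.09), 10 and 11 against untreated scramble alone, and 0 and 1 with the group as a random block. GINS2 (0.44, although 0.072 on a second probe set) and RFC4 (0.32) were shared on the higher side, and POLA2 (-0.46) and FEN1 (-0.34) on the lower. Each lies in a longer stretch that moved the same way, described at the end. GINS2 is in the one on chromosome 16, RFC4 on chromosome 3, and POLA2 and FEN1 on chromosome 11.

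Genes of the matrix and of adhesion split by member. Collagen chains were higher in 9 and lower in 3 of 17 (median 0.24), or 52.9% and 17.6%, against 26.3% and 20.3% over all tested genes. These counts became 6 and 6 against untreated scramble alone and 2 and 2 with the group as a random block. COL8A1 (0.74) and COL4A1 (0.43) were shared on the higher side. COL6A3, a chain of microfibrillar collagen, had 6.23, 6.05 and 6.08 in shCPT-2, 6.31, 6.17 and 6.15 in shCPT-1, 7.68, 7.72 and 7.504 in scramble with ETX and 8.02, 8.07 and 7.85 in scramble. It lay near or below the array medians on all 6 knockdown arrays and changed by -1.64 ± 0.055 (SE, adjusted p = 2.77e-10). LOX, lysyl oxidase, which crosslinks collagen, had 10.80, 10.73 and 10.76 in shCPT-2, 10.76, 10.79 and 10.74 in shCPT-1, 10.08, 10.06 and 10.07 in scramble with ETX and 9.59, 9.55 and 9.67 in scramble. The knockdown arrays were all above both scramble-line groups. The change was 0.93 ± 0.031 (SE, adjusted p = 2.77e-10), with no called difference between the lines and a rise with ETX (0.47).

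Among 35 other matrix and adhesion glycoproteins 13 were lower and 9 higher, with L1CAM, a neural adhesion molecule, higher by 1.21 ± 0.043 (0.184 on a second probe set) and LTBP1 (-0.93) lower. Integrin and laminin subunits were lower in 8 and higher in 2 of 24. The counts were 5 and 2 against untreated scramble alone, and 2 and 1 with the group as a random block. ITGB8, which activates latent TGF-beta, was called lower but lay below the array medians in both knockdown lines, and ITGA5 (0.42), a fibronectin receptor chain, was higher. Cadherins were lower in 7 and higher in 3 of 12, matrix metalloproteinases and their inhibitors in 4 and 1 of 14, and ADAMTS proteases in 3 and 1 of 11. Against untreated scramble alone 7 cadherins were lower and 0 higher. With the group as a random block 2, 1 and 2 members of these 3 lists were lower and 0 higher. MMP9 (-1.13), a gelatinase, was lower and also fell with ETX (-1.23). The plasminogen system was higher in 4 and lower in 1 of 7, with PLAT (0.58) higher and SERPINE2 (-0.71) lower.

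Epithelial and tight junction genes were higher in 12 and lower in 4 of 23 (median 0.12), 13 and 4 against untreated scramble alone, and 3 and 1 with the group as a random block. The shared ones were 5 higher and 2 lower, with EHF, described above, the lowest of the list. CLDN4, a tight junction claudin, averaged 7.67 ± 0.216 in shCPT-2, 8.48 ± 0.129 in shCPT-1, 6.84 ± 0.303 in scramble with ETX and 6.86 ± 0.172 in scramble (SD, n = 3 each) and changed by 1.23 ± 0.104 (SE, adjusted p = 9.52e-07), or 2.34-fold higher. Its scramble-line means were no higher than those of ESR1, so the size of this rise is uncertain. KRT19 (0.59), a simple-epithelium keratin, and CGN (0.39), cingulin, were shared on the higher side too. Genes of the mesenchymal programme were higher in 4 and lower in 5 of 16, with SNAI2 (-0.41) lower. SPARC was called lower too, but lay near the array medians in the scramble line and below them in the knockdown lines. YAP-TEAD targets were higher in 9 and lower in 2 of 21 (median 0.06), with tissue factor F3 (0.45) shared.

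Signalling genes moved in both directions. BMP2, a ligand of the BMP branch, had 5.76, 5.76 and 6.02 in shCPT-2, 6.06, 6.16 and 6.20 in shCPT-1, 8.14, 8.08 and 8.18 in scramble with ETX and 7.96, 7.91 and 7.48 in scramble. It was below the array medians in both knockdown lines, and its change was -1.96 ± 0.079 (SE, adjusted p = 1.41e-09), or 3.90-fold lower. INHBB (-1.03), an activin subunit, and SMAD7 (-0.98), an inhibitor of the pathway that lay below the array medians in shCPT-2, were lower, and ID3 (1.01), a BMP target, was higher. In all 11 of 35 TGF-beta and BMP genes were lower and 9 higher. EGF family genes were lower in 4 and higher in 3 of 9, with NRG1 (0.46, although -0.015 with its probe sets averaged) and HBEGF (0.37) higher. MAPK feedback genes were higher in 5 and lower in 5 of 18, AP-1 and immediate early genes higher in 6 and lower in 5 of 19, and Src family kinases and their regulators higher in 4 and lower in 3 of 13, with YES1 (0.35) higher and the adaptor PAG1 (-0.59) lower.

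Angiogenic factors were higher in 10 and lower in 10 of 25, with ANGPT1, a TIE2 ligand, called lower at a level below the array medians in both knockdown lines. Hypoxia genes were lower in 13 and higher in 9 of 30. VEGFA, which belongs to both lists, changed by -1.33 ± 0.078, with -2.30 in shCPT-2 and -0.35 in shCPT-1. Prostaglandin genes were higher in 3 and lower in 2 of 10, S100 proteins in 2 and 5 of 11, and p53-type arrest genes in 4 and 3 of 20.

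Lysosome and autophagy genes were higher in 15 and lower in 8 of 30 (median 0.11, and -0.02 against ETX-treated cells alone), and 4 and 2 with the group as a random block, with the acid glucosidase GAA (0.54) and the transcription factor MITF (0.56) higher and GLA, of the X chromosome block, lower. Proteasome subunits were higher in 4 and lower in 2 of 27, and ribosomal proteins in 9 and 4 of 37, with RPL31 (-0.26) of the chromosome 2 block the lowest. DNA methylation and Polycomb genes were higher in 7 and lower in 1 of 18, but 3 and 6 against untreated scramble alone. Of 12 genes of the small RNA machinery that hairpins use, 4 were higher and 4 lower, with AGO2 (-0.27) and AGO3 (-0.44) lower. The other probe sets of AGO3 gave -0.29, -0.558 and -0.114. Cancer-testis antigens were higher in 2 and lower in 4 of 10, with MAGEB2 (1.07, from a scramble-line level below the array medians) higher and MAGEA6 (-1.603) lower.

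Markers of other cell types were read as a check of the cultures. Of 13 leukocyte markers 5 were tested, 2 of them higher and 1 lower, with LCP1 (1.11), plastin-2, the largest, and PTPRC and CD3D not above the filter. Of 12 endothelial markers 8 were tested, 1 higher and 4 lower, and of 10 fibroblast markers 5, with 0 higher and 1 lower. Luminal epithelium markers were higher in 3 and lower in 5 of 10, and the genes MDA-MB-231 is known to express were higher in 2 and lower in 5 of 13. Their part in the results was not tested.

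**Figure D5:**
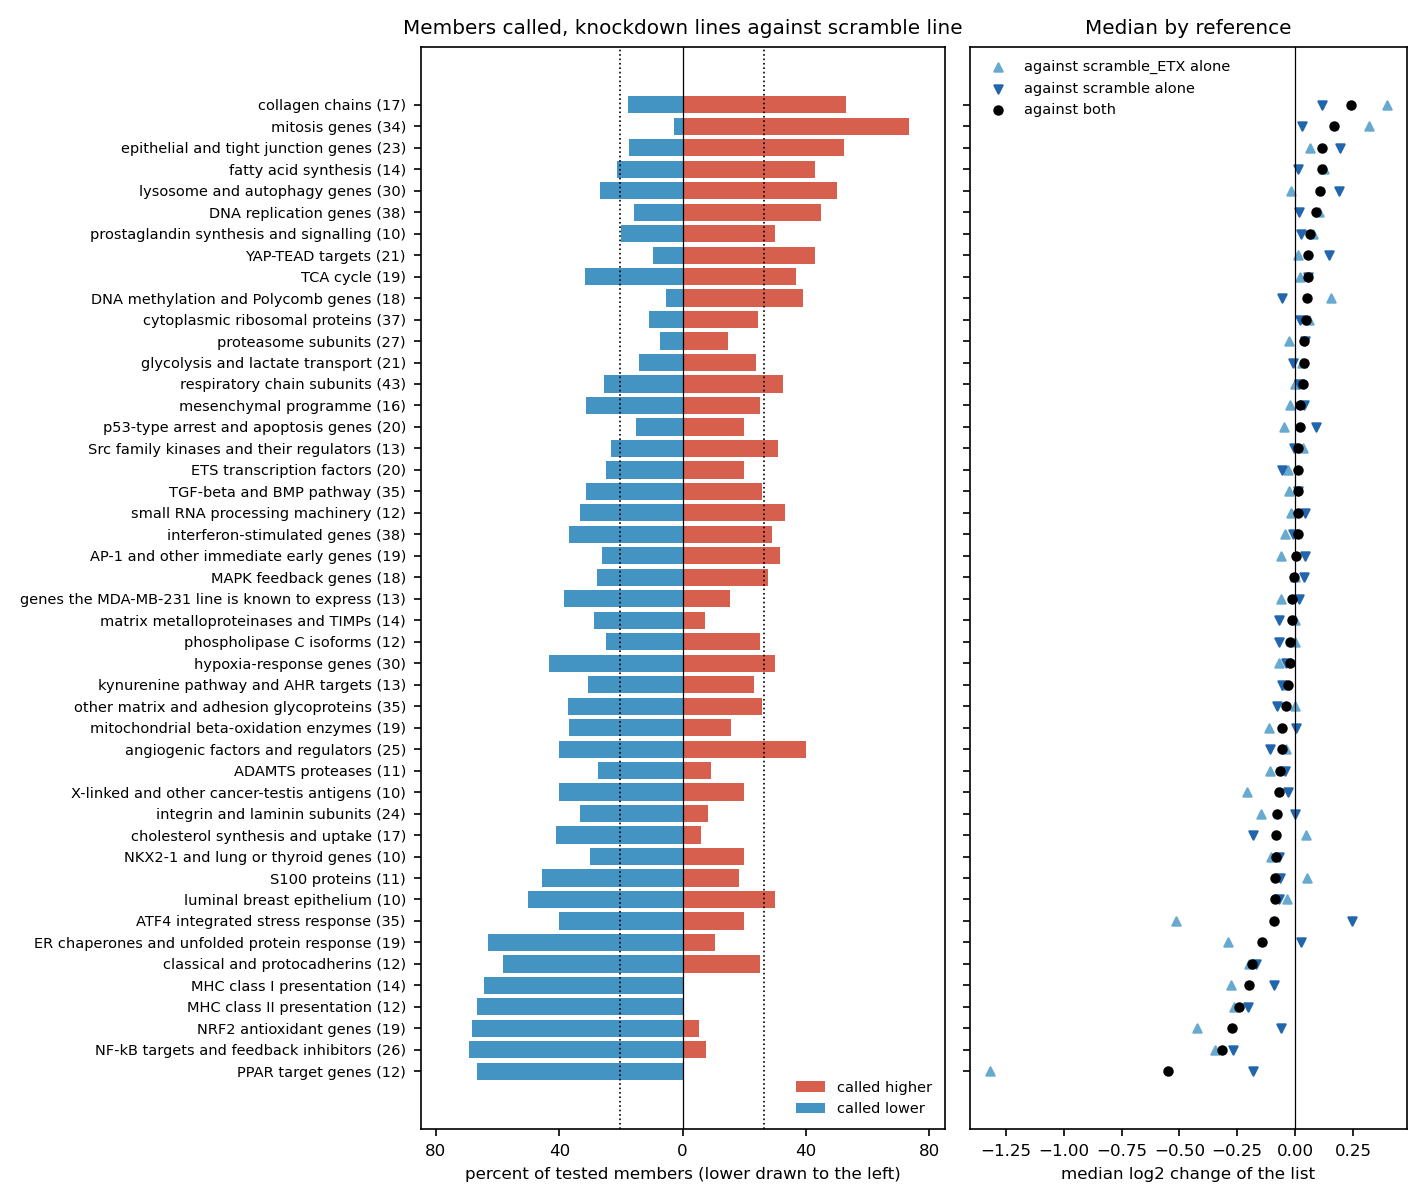
Percent of tested members of each gene list called higher (right) or lower (left) in the knockdown lines against the scramble line, with the percentages over all tested genes as dotted lines, and the median log2 change of each list against both sets of scramble-line arrays or either alone. Lists with at least 10 tested members are shown, with their number in brackets. Mitosis genes had the highest share of higher calls (73.5%) and NF-kB genes the highest of lower calls (69.2%), and the ATF4 and PPAR medians spread widest with the choice of scramble cells.

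The scramble line itself changed with ETX, which called 5319 genes (41.3%) against untreated scramble, so the pooled contrast averages unlike cells. The pooled contrast also hides genes that the lines moved in opposite ways. Against the scramble line, whose arrays both comparisons share, 497 genes (3.86%) were called in opposite directions, 284 of them lower in shCPT-2 and higher in shCPT-1 and 213 the reverse. PTGES, prostaglandin E synthase, changed by -1.44 in shCPT-2 and 1.49 in shCPT-1, with log2 levels of 7.78, 7.11 and 7.38 in shCPT-2, 10.22, 10.45 and 10.39 in shCPT-1, 8.72, 8.65 and 8.71 in scramble with ETX and 9.10, 9.03 and 8.95 in scramble. S100A4, a metastasis-associated calcium-binding protein, changed by -1.16 in shCPT-2 and 1.37 in shCPT-1. DDIT4, an inhibitor of mTORC1 signalling, changed by -2.14 in shCPT-2 and 0.77 in shCPT-1, and RASD1, a small GTPase of the chromosome 17 block, by -1.11 in shCPT-2 and 1.09 in shCPT-1. TAGLN, the smooth muscle actin-binding transgelin, changed by 0.91 in shCPT-2 and -0.63 in shCPT-1 and ADAMTS6, a matrix protease, by 0.65 in shCPT-2 and -0.89 in shCPT-1.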

How the data were processed

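RNA of MDA231 cells was measured on single-colour Affymetrix arrays, 3 arrays for each of 4 groups, assigned from the source names in the labels. The deposited values are a linear intensity per probe set and array, made with RMA per the submitters' processing notes. Neither the RMA version and settings nor the genome build is given in the sources used here. For arrays the number of arrays and the signal over background limit the precision.

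From the deposited intensities log2 values were taken. Of 54675 probe sets 62 were controls, 41091 had 1 gene symbol in the platform annotation, 1801 had several and 11721 had none. A probe set was kept when 3 or more arrays had it above their median, and the kept probe set with the highest mean stood for a gene, which gave 12887 genes. Means of the 4 groups were fitted with limma 3.58.1 (lmFit and eBayes, R 4.3.3, data.table at version 1.17.8, 8 residual and 4.117 prior degrees of freedom), and the mean of shCPT-2 and shCPT-1 minus the mean of both scramble groups was tested two-sided with Benjamini-Hochberg adjustment over all genes. Every adjusted p comes from this model unless another fit is named. A gene was called at an adjusted p under 0.05. Calculations were tested on simulated data. Blocks and figures used Python 3.11.15 with pandas 2.3.3, numpy 2.4.6 and, for drawing, matplotlib 3.10.9.

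Genes named singly were the 15 rises and 15 falls with the widest gap between group means, among called genes with separated arrays and at least the median level on the higher side. Up to 4 members per list by p, 5 genes per opposite pattern, CPT1A, CPT1B, CPT1C, CPT2 and SRC were added, and further members of lists and blocks were named after their values were seen. The genes and the 52 lists (1197 genes, 934 tested) were chosen with earlier results of these data known. Gene order and promoters came from RefSeq tables (GRCh38.p14), which gave a place for 12859 genes and a promoter for 10431. Blocks of neighbouring genes are runs of at least 10 windows of 11 genes with a median change of 0.35 or more, merged across gaps of up to 10, a rule set after seeing the data. Alternatives covered the filter, the probe sets, centring, normalization, weights, the choice of scramble cells, a replicate block, the group as a random block and leaving out each array.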

Additional observations from a re-analysis of the deposited data

Results flagged for a closer look

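A direct limma test of shCPT-2 minus shCPT-1 called 4575 of all tested genes, 33 of them higher and 88 lower by at least 2-fold. The genes flagged here come only from the largest rises and falls, the named genes with opposite changes, the CPT genes and SRC. Of these, 16 were called in that test with a difference of at least 1 log2 unit. Among genes lower in both lines, EHF was lower in shCPT-2 by a further -1.65 on the log2 scale, whereas FABP5 (1.25), OLFML3 (1.07), FAT3 (1.63) and CPT1A (1.37) were higher in shCPT-2 than in shCPT-1. CPT2 was lower in shCPT-2, at -1.22. EHF and CPT2 in shCPT-2 lay near or below the array medians, so the size of their line differences is uncertain. Of genes called in opposite directions in the lines, PTGES (-2.93), DDIT4 (-2.91), S100A4 (-2.52), RASD1 (-2.20) and S100A2 (-1.55) were lower in shCPT-2, and ADAMTS6 (1.54), TAGLN (1.54), RIMS2 (1.43), ST6GALNAC5 (1.34) and DCLK1 (1.10) were higher in shCPT-2. No group had 4 or more arrays, so single arrays were not screened for values far from the others.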

How the results depend on the processing

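Counts of called genes depended on the setting. With 3395 genes higher and 2610 lower as the starting point, the group as a random block (consensus correlation 0.647) gave 424 and 513, of which 421 and 509 had separated arrays, a plain comparison of 6 against 6 arrays gave 1775 and 1512, and each probe set on its own gave 5552 and 4485 (1743 and 1556 separated). With separation asked of fewer arrays more genes met it, 2075 higher and 1647 lower against untreated scramble alone, 2216 and 1957 against ETX-treated cells alone, and 1702 higher without the 4 arrays that correlate least with their group. With a change of at least 2-fold required, 49 were called higher and 98 lower, 44 and 92 of them separated. Array weights gave 4605 and 3495. Centring each array on its median gave 3645 and 2424. Leaving out 1 array gave 3036 to 3484 genes higher and 2424 to 2679 lower, with 1098 to 1288 and 986 to 1074 separated, 5053 to 6237 called for shCPT-2, 4341 to 5570 for shCPT-1, 3692 to 4927 between the lines and 4021 to 5575 for ETX.

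The replicate numbers do not pair the arrays, since same-numbered arrays correlated at -0.457 to 0.327 in their deviations and 3 of 12 arrays correlated best with their own number. With a replicate block 3291 genes were higher and 2533 lower, 1072 and 960 of them separated, and 5861 were called for shCPT-2, 5101 for shCPT-1, 4377 for the line difference and 5075 for ETX.

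The 15 rises and 15 falls kept their direction and call in 803 of 803 values over 27 alternatives, with a largest adjusted p of 0.00567 under the random block and 0.000351 otherwise. They were chosen for separated arrays and the widest gaps in these same data, so this stability follows largely from the choice. Some listed genes changed sign. With a gene's probe sets averaged NRG1 was at -0.015, S100A13 at 0 and PTGR1 at -0.017, and without probe sets that can cross-hybridise NRG1 was at -0.009. Against untreated scramble alone ST6GALNAC5 was at 0.048, SLC25A20 at 0.18, SLC7A11 at 0.24, MMP1 at 0.051 and COL1A1 at -0.12, and against ETX-treated cells alone PFKFB4 was at 0.018, ZMAT3 at -0.002 and S100A16 at 0.002. The cause was not tested. A window of 21 genes gave 5 blocks and a running median of 0.5 gave 4, both with stretches on chromosome 17 and the X chromosome.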

Other observations

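Longer shifts of neighbouring genes appeared when the window was widened to 51 genes and the median change lowered to 0.15, a setting chosen after seeing the data. On this scale 12 stretches with 1508 of the 12859 placed genes (11.7%) were shifted between the knockdown lines and the scramble line, those on chromosome 17 and the X chromosome among them. The longest higher one lay on chromosome 3 from TMEM45A to TFRC, where 240 of 322 genes were higher and 15 lower, with a median of 0.22 in shCPT-2 and 0.31 in shCPT-1. The longest lower one lay on chromosome 11 from CLP1 to COLCA1, where 241 of 362 genes were lower and 6 higher, with medians of -0.21 in shCPT-2 and -0.24 in shCPT-1. Other higher stretches included DOK4 to PIEZO1 on chromosome 16 (129 of 190 genes higher, median 0.20), TECTB to UROS on chromosome 10 (48 of 61, median 0.30) and ACADS to ADGRD1 on chromosome 12 (45 of 59, median 0.29). Other lower ones included TACC3 to TLR6 on chromosome 4 (65 of 97 lower, median -0.21), MTFR2 to AGPAT4-IT1 on chromosome 6 (51 of 78, median -0.20) and EIF2AK3 to GPR45 on chromosome 2 (44 of 62, median -0.27). A further lower stretch on chromosome 11 ran from HYOU1 to TIRAP (36 of 55, median -0.20).

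Between the lines the same setting found 2 stretches with 30 genes (0.233%), on chromosome 16 and the X chromosome. Within the scramble line, ETX against untreated cells gave 24 stretches with 965 genes (7.5%), among them 70 genes from CTH to GCLM on chromosome 1 with a median ETX change of 0.20 and 37 from TIMM8A to ATG4A on the X chromosome with 0.17. The chromosome 3 and chromosome 11 stretches of the knockdown lines had median ETX changes of 0.06 and -0.04. Stretches were found on the contrast they describe and carry no test.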
